A study of Mus musculus with 6 samples.

Results

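The genes described here are 10 cytosolic heat shock genes, chosen by symbol from the 18543 genes of the deposited count table: Hspa1a, Hspa1b, Hspa8, Hsph1, Dnaja1, Dnajb1, Hsp90aa1, Hsp90ab1, Bag3 and Hsf1. All 10 were found, and all 10 passed the low-count filter. RNA was sequenced from group 2 innate lymphoid cells (ILC2s), tissue lymphocytes that make type 2 cytokines, sorted from lungs of C57BL/6 mice aged 8 weeks. There were 3 libraries labelled KO, from mice labelled Atg5-/-, and 3 labelled WT, from mice labelled wild-type. Mice of both groups had received 0.5 µg of recombinant mouse IL-33 into the nose on 3 days in a row and gave their ILC2s on day 4, so no unstimulated cells are among the samples. The sources used here do not say how Atg5 was removed, in which cells, or whether each library came from its own mouse. The p-values therefore measure the spread between libraries, which may be technical.

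Heat shock proteins of the cytosol fold new proteins, refold damaged ones and hand clients on for degradation. HSP70 proteins bind exposed stretches of a client in a cycle driven by ATP. J-domain proteins (HSP40) start that cycle and nucleotide exchange factors end it, after which HSP90 can take over the client. When unfolded protein ties up the chaperones, the factor HSF1 is freed, forms trimers and binds heat shock elements, runs of alternating GAA and TTC triplets, in front of the genes. HSF1 is controlled mainly as a protein, so its RNA level is a poor gauge of its activity. Autophagy, the process that needs Atg5, is another route by which cells clear misfolded protein, and BAG3 links clients of HSP70 to it.

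RefSeq promoter windows (build GRCm38.p6, 250 bases before to 50 bases after each annotated start) covered 6 of the 10 genes in 10 windows. The sequences are shown because these genes share a known regulator: 3 genes with a pair of triplets before the start and 1 gene without. Each line gives the 250 bases before the start, 5′ to 3′ on the gene's strand, and capitals mark every GAANNTTC or TTCNNGAA, the pairs of alternating triplets. Both patterns read the same on either strand.
Hspa1a, chr17:34972157-34972406, minus strand: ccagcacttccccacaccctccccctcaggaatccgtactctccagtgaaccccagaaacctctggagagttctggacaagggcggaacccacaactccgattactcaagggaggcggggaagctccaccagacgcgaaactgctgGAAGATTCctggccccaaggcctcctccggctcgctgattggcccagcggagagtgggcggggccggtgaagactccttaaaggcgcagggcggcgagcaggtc
Hspa1b, chr17:34959239-34959488, minus strand: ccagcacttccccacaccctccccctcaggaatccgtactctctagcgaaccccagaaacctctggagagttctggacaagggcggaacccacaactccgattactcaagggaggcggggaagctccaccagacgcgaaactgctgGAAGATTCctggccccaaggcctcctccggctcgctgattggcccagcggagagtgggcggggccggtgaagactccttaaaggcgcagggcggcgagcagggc
Hsph1, chr5:149636337-149636586, minus strand: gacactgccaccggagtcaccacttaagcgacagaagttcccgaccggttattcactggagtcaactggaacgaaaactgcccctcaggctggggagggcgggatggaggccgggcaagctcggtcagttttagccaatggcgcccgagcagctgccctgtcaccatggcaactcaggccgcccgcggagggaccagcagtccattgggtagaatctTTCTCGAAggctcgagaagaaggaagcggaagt
Dnajb1, chr8:83607925-83608174, plus strand: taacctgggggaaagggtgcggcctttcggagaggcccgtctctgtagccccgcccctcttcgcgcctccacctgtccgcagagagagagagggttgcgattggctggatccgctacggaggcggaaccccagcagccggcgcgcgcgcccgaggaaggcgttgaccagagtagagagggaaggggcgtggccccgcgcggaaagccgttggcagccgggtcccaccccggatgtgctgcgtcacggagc

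The Hspa1a and Hspa1b windows differed at 4 of 300 positions, 3 of them before the start. Both held GAAGATTC from base -104 and a CCAAT box in reverse from base -67, counted from the annotated start. Hsph1 held TTCTCGAA from base -33 of its first annotated start and, after the start, the 3-triplet run TTCTGGAAAGTTC from base 37, which contains 2 overlapping pairs. Dnaja1 had GAAAATTC from base -124 of 1 of its 3 annotated starts. Bag3 had its match, GAAGTTTC, after the start, from base 43, and neither window of Dnajb1 held a pair. Of the 6 genes, 5 had a pair in at least 1 window, 1 had a 3-triplet run and none had a TATAAA box. Over all 32851 promoter windows of the same length, 15.1% had at least 1 pair, 0.603% a 3-triplet run (GAANNTTCNNGAA or TTCNNGAANNTTC), 37.4% a CCAAT box and 13.6% a TATAAA box, on either strand. The counts of genes span up to 3 windows per gene, whereas these shares are per window, so they are not on the same scale. A match is a run of letters, not a bound site.

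**Figure D1:**
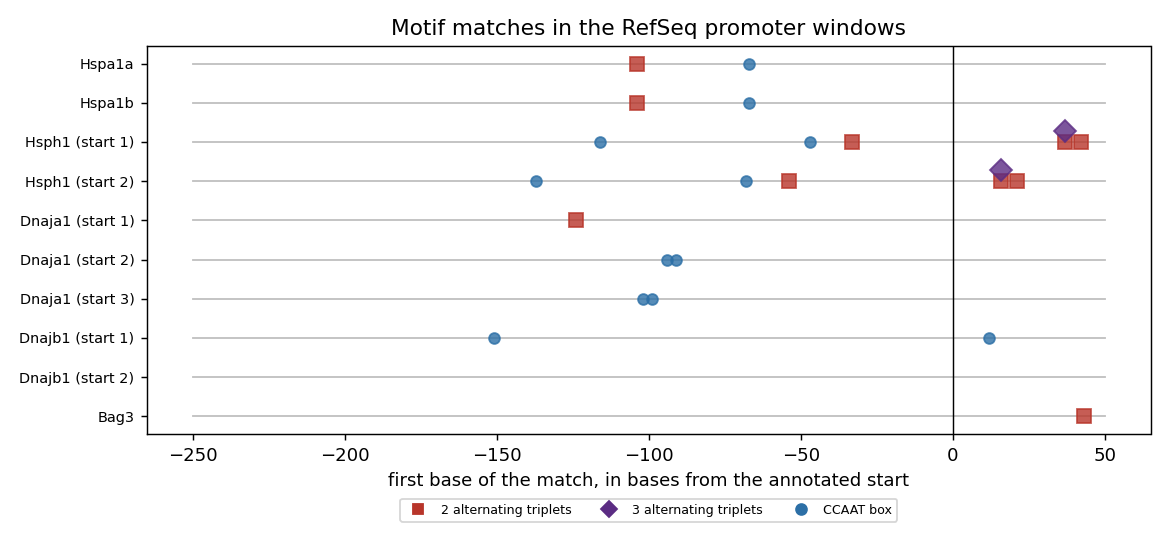
First base of each motif match in the 10 RefSeq promoter windows of 6 genes; the x axis is the distance in bases from the annotated start (black line), squares are pairs of alternating triplets, diamonds are 3-triplet runs and circles are CCAAT boxes on either strand. Hspa1a and Hspa1b carry the same layout, Hsph1 has the 3-triplet run after its start, and neither Dnajb1 window has a triplet pair.

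The 6 libraries held 28827545 to 33662979 estimated counts. The 10 genes took 1.03%, 1.02% and 0.899% of them in the KO-labelled libraries 1 to 3, against 0.497%, 0.519% and 1.02% in the WT-labelled libraries 1 to 3. The targeted gene went against a label. Atg5 was at 23.0, 25.6 and 52.1 CPM in the KO-labelled libraries 1 to 3, against 66.3, 71.8 and 21.8 CPM in the WT-labelled libraries 1 to 3, where CPM are counts per 1000000 counts of the library. The library labelled WT 3 lay below every library labelled KO. Which exons were deleted is not stated, so reads from the rest of the gene may count as Atg5. Over 14052 genes the log2 levels of the library labelled WT 3 had r = 0.991 with those of the library labelled KO 1 and r = 0.946 with those of the library labelled WT 1 (genes are not independent replicates). Every direction below is therefore one between labels, and results are given with and without the library labelled WT 3. That library was singled out by its values in these same data. Adjusted p-values from fits without it therefore describe the split of the libraries and do not test the genotype.

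All 11 ILC2 markers looked for were measured, and some moved with the same split of the libraries. In edgeR's fit that omits the library labelled WT 3, Il17rb and Il13 (2 of 11) rose and 4 fell (Gata3, Rora, Il1rl1 and Klrg1). The other 5 (Il7r, Il2ra, Icos, Areg and Il5) did not pass. In that fit 33.9% of all genes passed, and 0 markers passed with all 6 libraries. Il5, the most abundant marker, was at 9187, 8696 and 5348 CPM under KO, against 8236, 8997 and 9142 CPM under WT. Gata3, Il1rl1, Klrg1 and Il13, given next, were named after their values were seen. Gata3, the transcription factor of these cells, was at 899, 924 and 926 CPM under KO, against 1558, 1532 and 964 CPM under WT, and Il1rl1, the IL-33 receptor, at 456, 432 and 527 CPM under KO, against 972, 923 and 471 CPM under WT. Klrg1, a surface receptor, was at 174, 163 and 121 CPM under KO, against 526, 556 and 154 CPM under WT, and the cytokine gene Il13 at 367, 366 and 285 CPM under KO, against 99.0, 116 and 355 CPM under WT. Their part in the heat shock levels was not tested.

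Of the 10 heat shock genes, 7 had their lowest levels in the libraries labelled WT 1 and WT 2, while Dnajb1, Hsf1 and Bag3 did not. The share of all genes with this pattern was not counted. The inducible pair Hspa1a and Hspa1b differed most. For Hspa8, Hsph1, Dnaja1, Hsp90aa1 and Hsp90ab1 the library labelled WT 3 stood with those labelled KO. Between all 3 KO-labelled and all 3 WT-labelled libraries, 0 of the 10 genes passed edgeR's quasi-likelihood test at an adjusted p under 0.05, and 0% passed of all 14052 genes tested. An unadjusted p under 0.05 was reached by 2 of the 10, Hspa1a and Hspa1b, and by 14.4% of all genes. DESeq2 on the same libraries also passed 0 of the 10, against 2.55% of the genes it tested, most of them lower under KO (2.44%).

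With the library labelled WT 3, chosen by its values, left out, 7 of the 10 rose and 0 fell in edgeR's fit. In that fit 33.9% of 14743 genes passed, 17.7% higher and 16.1% lower under KO. The same 7 rose with both libraries numbered 3 left out, where 45.4% of genes passed and 22.7% were higher. The median of the 10 log2 differences was 0.52 with all 6 libraries and 0.96 with the library labelled WT 3 left out, beside 0.02 over all genes tested in each fit.

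**Figure D2:**
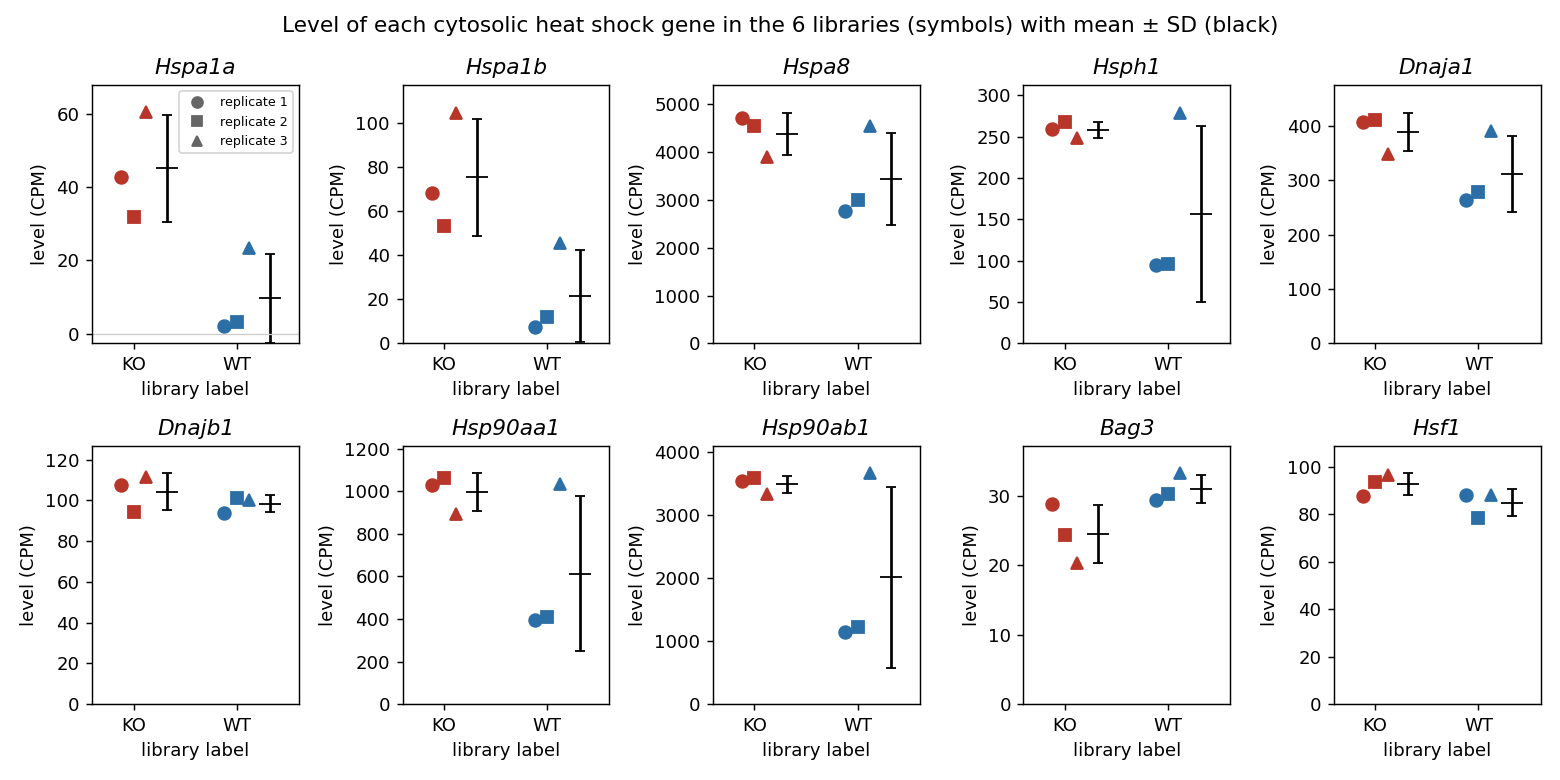
Level in CPM of each gene in the 6 libraries; red symbols are libraries labelled KO and blue symbols those labelled WT, the shape gives the replicate number, and black marks are the group mean with its SD (n = 3). In 5 panels (Hspa8, Hsph1, Dnaja1, Hsp90aa1, Hsp90ab1) the blue triangle, the library labelled WT 3, stands with the red symbols, whereas for Hspa1a and Hspa1b it stands between.

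Hspa1a and Hspa1b encode the stress-inducible HSP70, which is scarce in unstressed cells. In mm10 Hspa1a lies on chromosome 17 (34969190 to 34972156, minus strand) and Hspa1b on chromosome 17 (34956436 to 34959238, minus strand), each with 1 exon. On the opposite strand Hspa1a overlaps the protein-coding gene Gm20481, and the sources used here do not say whether counting used strand. In GENCODE M21 their coding sequences were 99.4% identical, with 11 of 1929 aligned positions not identical, and their 3′ untranslated regions 47.8%. Of all 50-base windows in the Hspa1a transcript, 58.8% occur unchanged in Hspa1b. Their separate levels thus depend on how shared reads were divided, and their sum was tested as 1 feature.

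The summed pair had 111, 84.8 and 165 CPM in the KO-labelled libraries 1 to 3, against 9.63, 14.8 and 69.0 CPM in the WT-labelled libraries 1 to 3. The groups did not overlap, though the library labelled WT 3 lay far above the other 2 labelled WT. Group means were 120.3 ± 40.9 CPM under KO and 31.2 ± 32.9 CPM under WT (SD, n = 3 each). The log2 difference did not pass with all 6 libraries (1.95, SE 0.73, adjusted p = 0.342, edgeR), nor by DESeq2 (1.93, SE 0.66, adjusted p = 0.0765). The sum rose in the fit that omits the library labelled WT 3 (3.25, SE 0.34, adjusted p = 0.00055, edgeR).

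Singly, Hspa1a was at 42.8, 31.7 and 60.6 CPM in the KO-labelled libraries 1 to 3, against 2.16, 3.07 and 23.5 CPM in the WT-labelled libraries 1 to 3. Hspa1b was at 68.2, 53.1 and 105 CPM under KO, against 7.47, 11.8 and 45.5 CPM under WT, in the same order of replicates. Both genes were separated by label with KO higher, as were 9.26% of all genes tested. The log2 difference of Hspa1a with all 6 libraries did not pass (2.24, SE 0.88, adjusted p = 0.342, edgeR), nor did that of Hspa1b (1.80, SE 0.67, adjusted p = 0.342). Both rose in the fit that omits the library labelled WT 3, Hspa1a (4.11, SE 0.35, adjusted p = 0.000257) and Hspa1b (2.97, SE 0.35, adjusted p = 0.000861).

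The division of the pair also differed between libraries. Hspa1a took 38.5%, 37.4% and 36.7% of the pair's estimated counts in the KO-labelled libraries 1 to 3, against 22.4%, 20.7% and 34.0% in the WT-labelled libraries 1 to 3. The 95% Wilson intervals were 36.9% to 40.2%, 35.7% to 39.2% and 35.4% to 38.0% under KO, against 18.1% to 27.6%, 17.2% to 24.7% and 32.0% to 36.1% under WT. They take the rounded estimated counts as separate reads. They leave out error from dividing shared reads and the spread between libraries, so they may be too narrow. The libraries labelled WT 1 and WT 2, with 66 and 94 counts of Hspa1a beside 228 and 360 of Hspa1b, had intervals below all others. Whether this lies in the genes or in the division of shared reads was not tested.

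Hspa8 encodes HSC70, the HSP70 that cells make at all times, which also carries proteins to lysosomes in chaperone-mediated autophagy. The gene lies on chromosome 9 (40800984 to 40810087, plus strand). It had 4707, 4536 and 3878 CPM in the KO-labelled libraries 1 to 3, against 2771, 2994 and 4537 CPM in the WT-labelled libraries 1 to 3. The groups overlapped, since the library labelled WT 3 lay at the level of the one labelled KO 2. Means were 4373 ± 438 CPM under KO and 3434 ± 962 CPM under WT (SD, n = 3 each), and the log2 difference did not pass with all 6 libraries (0.35, SE 0.24, adjusted p = 0.441, edgeR). Hspa8 rose once the library labelled WT 3 was omitted (0.61, SE 0.11, adjusted p = 0.00469).

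Hspa8 exceeded the inducible pair in every library. The ratio of Hspa8 to the summed pair, in CPM and not per length, was 42.4, 53.5 and 23.5 in the KO-labelled libraries 1 to 3, against 288, 202 and 65.8 in the WT-labelled libraries 1 to 3. The excess was smallest in the library labelled KO 3 and largest in the one labelled WT 1. In GENCODE M21, 73.2% of 50-base windows in the Hspa8 transcript recur in 11 other genes, of which 8 are in the count table. Reads assigned to those 8 came to 5.81% to 6.14% of its level under KO and 5.76% to 5.94% under WT.

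Hsph1 encodes HSP105, a member of the HSP110 family and a nucleotide exchange factor of HSP70. It lies on chromosome 5 (149614287 to 149636376, minus strand), and none of its 50-base windows recurs in another gene. Its values were 259.5, 267 and 248 CPM in the KO-labelled libraries 1 to 3, against 95.4, 95.6 and 279 CPM in the WT-labelled libraries 1 to 3. The library labelled WT 3 was the highest of all 6. The log2 difference did not pass with all 6 libraries (0.72, SE 0.42, adjusted p = 0.391, edgeR), and Hsph1 rose with that library left out (1.44, SE 0.09, adjusted p = 8.15e-05).

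Bag3, on chromosome 7 (128523616 to 128546981, plus strand), encodes another exchange factor of HSP70, the one that steers clients to autophagy, and is a classical HSF1 target. It had 28.8, 24.4 and 20.4 CPM in the KO-labelled libraries 1 to 3, against 29.4, 30.3 and 33.3 CPM in the WT-labelled libraries 1 to 3. Every library labelled KO lay below every one labelled WT, as in 9.22% of all genes tested. Bag3 was the only one of the 10 with a negative log2 difference, and this did not pass with all 6 libraries (-0.34, SE 0.18, adjusted p = 0.366, edgeR) or in the fit that omits the library labelled WT 3 (-0.28, SE 0.17, adjusted p = 0.265).

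Dnaja1, a J-domain partner of HSC70, lies on chromosome 4 (40722150 to 40737149, plus strand). It had 408, 411 and 349 CPM in the KO-labelled libraries 1 to 3, against 263, 279 and 392 CPM in the WT-labelled libraries 1 to 3. The library labelled WT 3 again lay within the range of the libraries labelled KO. The log2 difference did not pass with all 6 libraries (0.32, SE 0.20, adjusted p = 0.398, edgeR), and Dnaja1 rose with that library left out (0.53, SE 0.10, adjusted p = 0.00765). Dnaja1 overlaps Smu1 on the opposite strand, and the sources used here do not say whether counting used strand. Of its 50-base windows 30.6% recur in other genes, and the 2 of these in the count table held reads worth 13.8% to 16.1% of its level under KO and 13.7% to 16.2% under WT.

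Dnajb1, on chromosome 8 (83608193 to 83612653, plus strand), encodes the main inducible J-domain partner of HSP70 and, like Bag3, is a textbook HSF1 target. It was at 107, 94.2 and 111 CPM under KO, against 93.8, 101 and 100.1 CPM under WT, in the order of replicates. The groups overlapped, and the means were 104 ± 8.96 CPM under KO and 98.4 ± 4.01 CPM under WT (SD, n = 3 each). The log2 difference passed neither with all 6 libraries (0.08, SE 0.13, adjusted p = 0.72, edgeR) nor in the fit that omits the library labelled WT 3 (0.10, SE 0.11, adjusted p = 0.517).

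Hsp90ab1, the constitutive cytosolic HSP90, lies on chromosome 17 (45567775 to 45573271, minus strand). It had 3544, 3598 and 3339 CPM in the KO-labelled libraries 1 to 3, against 1154, 1218 and 3664 CPM in the WT-labelled libraries 1 to 3. Hsp90aa1, the inducible form, lies on chromosome 12 (110690605 to 110702728, minus strand) and had 1031, 1060.5 and 893 CPM under KO, against 397, 408 and 1037 CPM under WT, in the same order. For both genes the libraries labelled WT 1 and WT 2 were far below the other 4. With all 6 libraries neither Hsp90ab1 (0.80, SE 0.46, adjusted p = 0.385) nor Hsp90aa1 (0.70, SE 0.39, adjusted p = 0.38) passed edgeR's test.

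Once the library labelled WT 3 was omitted, Hsp90ab1 (1.57, SE 0.08, adjusted p = 5.27e-05, edgeR) and Hsp90aa1 (1.31, SE 0.10, adjusted p = 0.0002) both rose. The ratio of Hsp90ab1 to Hsp90aa1 in CPM was 3.44, 3.39 and 3.74 in the KO-labelled libraries 1 to 3, against 2.90, 2.99 and 3.54 in the WT-labelled libraries 1 to 3. The lowest ratios were those of the libraries labelled WT 1 and WT 2. The coding sequences of these genes were 75.6% identical. Of 50-base windows in the Hsp90aa1 transcript 65.6% recur in other genes, and the 3 of these in the count table held reads worth 2.49% to 2.53% of its level under KO and 2.24% to 2.70% under WT.

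Hsf1, the transcription factor of the heat shock response, lies on chromosome 15 (76477422 to 76501913, plus strand). Its values were 87.8, 93.8 and 96.6 CPM in the KO-labelled libraries 1 to 3, against 88.2, 78.3 and 88.3 CPM in the WT-labelled libraries 1 to 3. The groups overlapped. The log2 difference passed neither with all 6 libraries (0.13, SE 0.12, adjusted p = 0.568, edgeR) nor in the fit that omits the library labelled WT 3 (0.16, SE 0.10, adjusted p = 0.268).

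**Figure D3:**
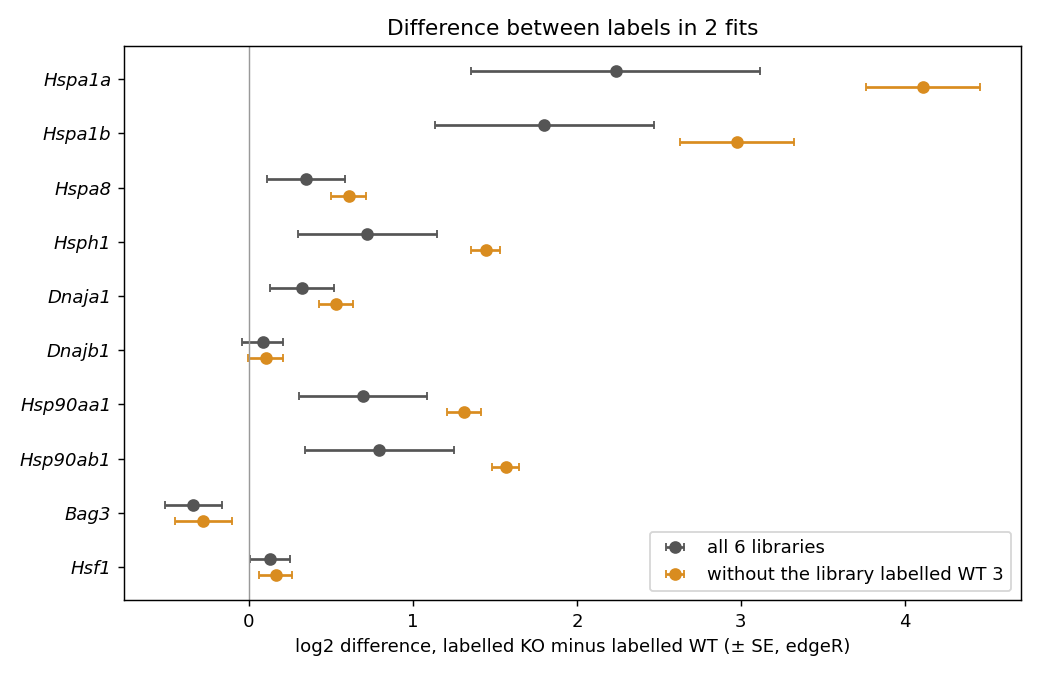
Log2 difference between labels (KO minus WT) with its SE for each gene, from edgeR's fit to all 6 libraries (grey) and from the fit without the library labelled WT 3 (orange). The differences of Hspa1a and Hspa1b are the largest in both fits, and those of Dnajb1, Bag3 and Hsf1 stay between -0.34 and 0.16.

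Within the KO-labelled libraries, number 3 had the highest level of Hspa1a and Hspa1b and the lowest level of Hspa8, Hsph1, Dnaja1, Hsp90aa1, Hsp90ab1 and Bag3, and it also had the most Atg5 of the 3. Over the 10 genes only, with no such count over all genes, the library labelled WT 3 lay within the range of the libraries labelled KO for 5. It lay above all of them for 3 (Hsph1, Hsp90ab1 and Bag3) and below all of them for 2 (Hspa1a and Hspa1b). For the summed Hspa1 pair its log2 difference from the KO-labelled libraries 1 to 3 was -0.69, -0.30 and -1.26, and from the libraries labelled WT 1 and WT 2 it was 2.84 and 2.22.

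Levels of different genes were compared per kilobase of all annotated exons (CPM per kb), as mean ± SD with n = 3 in each group. Hsp90ab1 stood at 1165 ± 45.6 CPM per kb under KO and 671 ± 477 CPM per kb under WT, Hspa8 at 1017 ± 102 CPM per kb under KO and 798 ± 224 CPM per kb under WT and Hsp90aa1 at 253 ± 22.8 CPM per kb under KO and 156 ± 93.1 CPM per kb under WT. Dnaja1 (45.1 ± 4.08 CPM per kb under KO and 36.1 ± 8.12 CPM per kb under WT), Hsph1 (35.6 ± 1.32 CPM per kb under KO and 21.6 ± 14.6 CPM per kb under WT) and Dnajb1 (32.6 ± 2.80 CPM per kb under KO and 30.7 ± 1.25 CPM per kb under WT) came next. Hspa1b (26.9 ± 9.43 CPM per kb under KO and 7.70 ± 7.44 CPM per kb under WT), Hspa1a (15.2 ± 4.90 CPM per kb under KO and 3.22 ± 4.06 CPM per kb under WT), Hsf1 (13.1 ± 0.631 CPM per kb under KO and 12.0 ± 0.805 CPM per kb under WT) and Bag3 (9.58 ± 1.64 CPM per kb under KO and 12.1 ± 0.777 CPM per kb under WT) were the lowest under KO. On this exon scale, under KO, values of Hsp90ab1, Hspa8, Hsp90aa1 and Dnaja1 did not overlap those of the gene next below. Dnajb1 overlapped Hsph1, Hspa1b overlapped Hsph1, Dnajb1 and Hspa1a, and Hspa1a overlapped Hsf1 and Bag3. Hspa8 stood above Hsp90ab1 under the labels WT 1 and WT 2, where each of the Hspa1 genes stood below Bag3 and Hsf1. These values divide by all annotated exons, which favours genes with few long isoforms, and the order of some genes depends on it. Per kb of the first-numbered GENCODE transcript, a length chosen after seeing the data, Hspa8 stood above Hsp90ab1 in every library labelled KO (1827 ± 183 CPM per kb under KO and 1435 ± 402 under WT; 1386 ± 54.3 CPM per kb under KO and 798 ± 568 under WT for Hsp90ab1). On that scale Hsf1 (46.0 ± 2.22 CPM per kb under KO and 42.1 ± 2.83 under WT) stood above Dnajb1 (34.8 ± 2.99 CPM per kb under KO and 32.9 ± 1.34 under WT), so neither pair kept its order under KO across both lengths.

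Partners of these chaperones were read from 6 further lists. None of their genes passed with all 6 libraries, so the counts that follow are from edgeR's fit without the library labelled WT 3, in which 17.7% of all genes rose and 16.1% fell, with a median of 0.02. Of the HSP90 and HSP70 cochaperones 9 rose and 0 fell of 17 tested (median log2 difference 0.38). Ptges3 (p23), which stabilises closed HSP90, had 364, 337 and 320.4 CPM in the KO-labelled libraries 1 to 3, against 149, 159.7 and 340.2 CPM in the WT-labelled libraries 1 to 3. Stip1 (HOP), which links HSP70 to HSP90, had 421, 401 and 361 CPM under KO, against 232, 222 and 417 CPM under WT, in the same order. Both were lowest in the libraries labelled WT 1 and WT 2. Cdc37, which loads kinases onto HSP90, was at 379 to 426 CPM under KO and 301 to 408 CPM under WT, and Ahsa2 at 75.7 to 82.4 CPM under KO and 54.6 to 70.8 CPM under WT. Ptges3, Stip1, Cdc37 and Ahsa2 were among those that rose.

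Of the other cytosolic HSP70 and HSP110 genes and exchange factors, 5 rose and 1 fell of 11 tested (median log2 difference 0.33). The one that fell was Hspa4, an HSP110 relative of Hsph1, at 602, 594 and 474 CPM in the KO-labelled libraries 1 to 3, against 922, 896 and 582 CPM in the WT-labelled libraries 1 to 3. It fell (-0.70, SE 0.12, adjusted p = 0.00392, edgeR) where Hsph1 of the same family rose. Bag5 was at 80.5, 87.3 and 90.1 CPM under KO, against 48.3, 51.1 and 81.3 CPM under WT, and Bag1 at 282 to 332 CPM under KO and 239 to 299.7 CPM under WT, and both rose. Of the other J-domain genes, 3 rose and 1 fell of 11 tested (median log2 difference 0.17). Dnajb2 was at 14.6, 16.3 and 33.3 CPM under KO, against 7.24, 7.78 and 15.8 CPM under WT and rose, while Dnajc9, a histone chaperone, was at 122 to 187 CPM under KO and 183 to 269 CPM under WT and fell. Dnaja2 was at 301 to 319 CPM under KO and 265 to 323 CPM under WT and did not pass (adjusted p = 0.0573).

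Small heat shock genes were low, and 4 were tested. Hspb1, which encodes HSP25, rose and was at 1.52, 2.29 and 3.32 CPM in the KO-labelled libraries 1 to 3, against 0.328, 0.589 and 1.62 CPM in the WT-labelled libraries 1 to 3; 3 counts, the floor used here, are 0.0892 to 0.104 CPM. Cryaa, named after its values were seen, encodes a lens crystallin and was at 1.83, 1.55 and 2.36 CPM under KO, against 0.0983, 0 and 1.29 CPM under WT. Under the labels WT 1 and WT 2 it lay at or below about that floor and entered the test through the other libraries, so no call is read from it and no count is given for the list. Hspb11 (9.48 to 10.7 CPM under KO and 6.34 to 9.08 CPM under WT) and Hspb6 (1.53 to 3.77 CPM under KO and 3.28 to 5.54 CPM under WT) did not pass. Of 4 tested genes for other heat shock factors and their binding proteins, 0 passed. Hsbp1, whose protein binds HSF1 trimers, was at 107, 110.4 and 112 CPM under KO, against 117, 126 and 111 CPM under WT. Hsf2 was at 2.80 to 3.89 CPM under KO and 1.66 to 2.62 CPM under WT, Hsf4 at 0.0692 to 0.624 CPM under KO and 0.563 to 1.44 CPM under WT and Hsf2bp at 0 to 0.173 CPM under KO and 0.397 to 0.786 CPM under WT.

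Relatives in mitochondria and the endoplasmic reticulum went different ways: 7 rose and 4 fell of 14 tested (median log2 difference 0.36). The 7 that rose (Hspa9, Trap1, Hspd1, Hspe1, Dnaja3, Grpel1 and Grpel2) are mitochondrial, and the 4 that fell (Hsp90b1, Hspa13, Dnajb11 and Dnajc3) belong to the endoplasmic reticulum, a split seen after the values were known. Grpel1, the mitochondrial exchange factor, had 148, 156 and 149 CPM in the KO-labelled libraries 1 to 3, against 101, 102 and 147 CPM in the WT-labelled libraries 1 to 3, and rose (0.58, SE 0.09, adjusted p = 0.00238, edgeR). Hspd1 (HSP60) and Hspe1 (HSP10), the mitochondrial chaperonin pair, named after their values were seen, differed more. Hspd1 was at 827, 838 and 688 CPM under KO, against 179, 183 and 850.1 CPM under WT, and Hspe1 at 247, 261 and 178 CPM under KO, against 53.4, 54.2 and 227 CPM under WT. Hsp90b1 (GRP94), the HSP90 of the endoplasmic reticulum, had 1124, 1104 and 1235 CPM under KO, against 1694, 1712 and 1182 CPM under WT. It fell (-0.55, SE 0.08, adjusted p = 0.00244, edgeR) where the cytosolic HSP90 genes rose. Hspa5 (BiP) was at 2219.6, 2293 and 3214 CPM under KO, against 2226, 2458 and 2285 CPM under WT, and did not pass (adjusted p = 0.561).

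**Figure D4:**
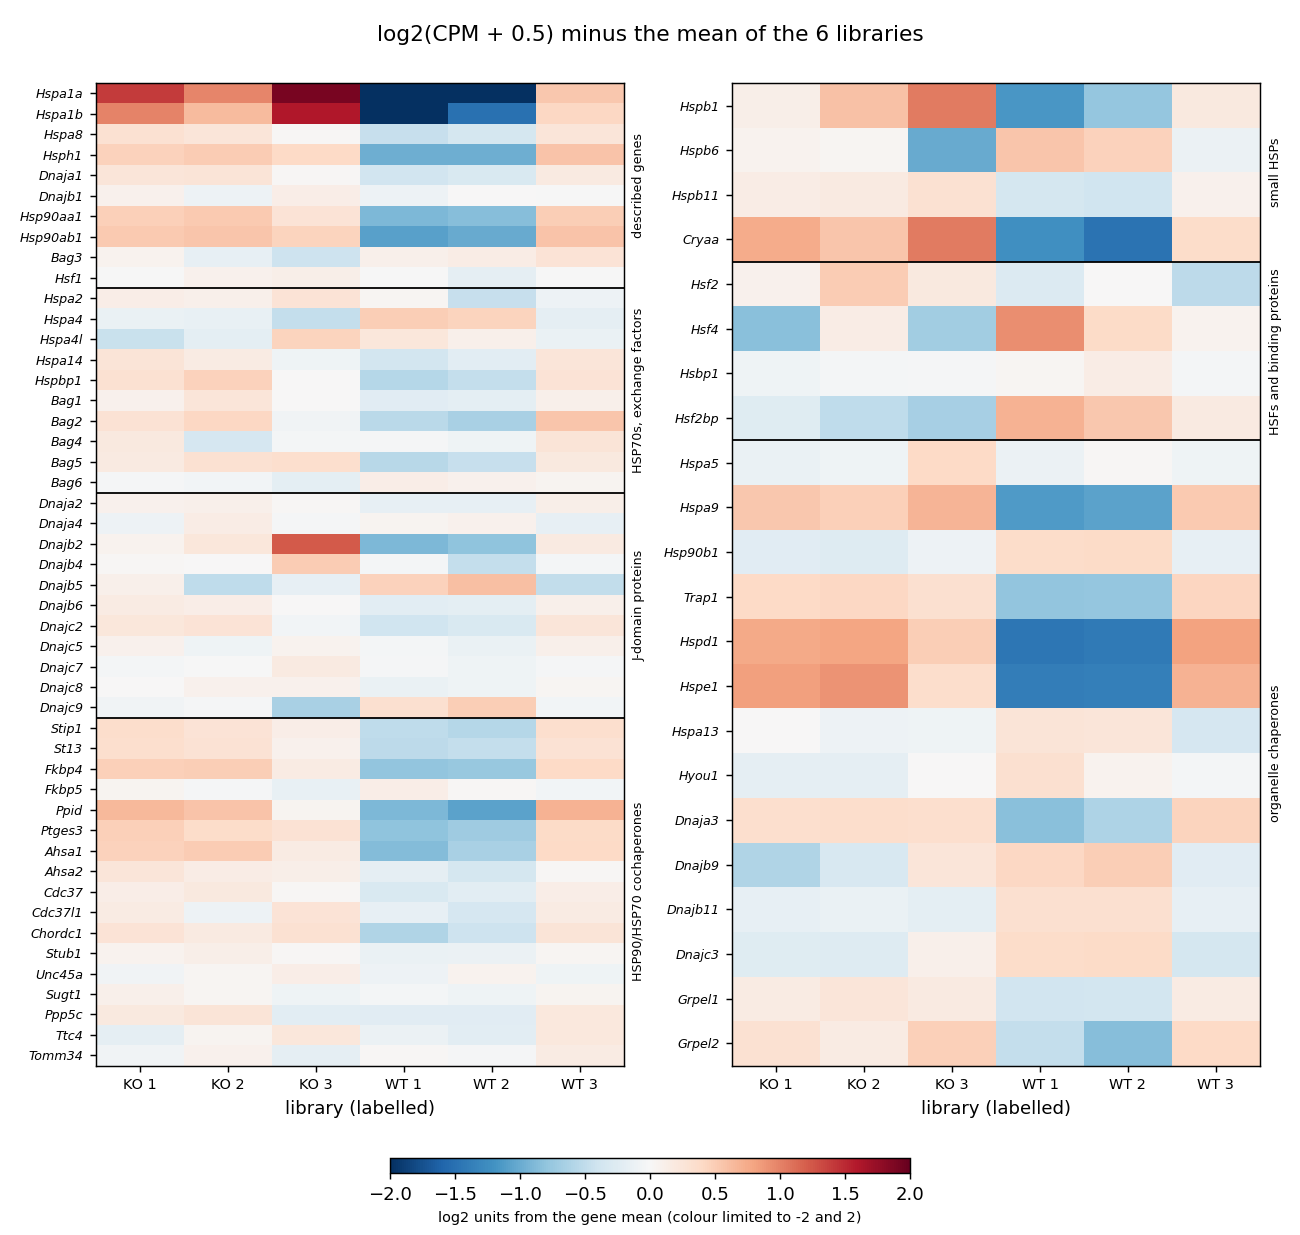
Each cell is log2(CPM + 0.5) of a gene in 1 library minus the gene's mean over the 6 libraries (red higher, blue lower, colour limited at 2 units); columns are the libraries labelled KO 1 to KO 3 and WT 1 to WT 3, and rows are the genes tested with all 6 libraries, by list. Hspa1a and Hspa1b show the widest range, the HSP90 genes and cochaperones such as Ptges3 and Stip1 are low under the labels WT 1 and WT 2, and Hspa4 and Hsp90b1 are high there.

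Tissue digestion and cell sorting can raise heat shock genes together with immediate-early genes, so 18 of these were read beside them. Their summed level was 1731 to 2259.9 CPM under KO and 1741 to 1887 CPM under WT. With all 6 libraries, 0 of the 17 tested passed. Calls and log2 differences given next were taken from edgeR with the library labelled WT 3 omitted. It then passed 17.7% of all genes as higher under KO and 16.1% as lower. Among the 17, 8 rose and 4 fell (median log2 difference -0.03). The list held genes that moved strongly in both directions. Those with the largest increases, named after their values were seen, were Nr4a1 (3.38 log2 units), Atf3 (2.90), Klf4 (2.54), Jun (2.48) and Klf2 (1.70). Jun was at 50.2, 53.2 and 100.3 CPM in the KO-labelled libraries 1 to 3, against 12.2, 12.3 and 65.1 CPM in the WT-labelled libraries 1 to 3, and Atf3 at 11.6, 12.0 and 21.1 CPM under KO, against 2.06, 1.93 and 11.1 CPM under WT. Like the Hspa1 pair, both were highest in the library labelled KO 3 and lowest in those labelled WT 1 and WT 2. Junb was at 645 to 722 CPM under KO and 512 to 621 CPM under WT and Ier5 at 142 to 197 CPM under KO and 118 to 139.9 CPM under WT, and both rose. Btg2 was at 27.9, 32.5 and 40.2 CPM under KO, against 108, 111 and 32.4 CPM under WT, and fell. Jund, at 229.6 to 257 CPM under KO and 260.0 to 346 CPM under WT, also fell. Fos and Dusp1, named after their values were seen, fell as well (-1.77 and -0.43 log2 units). Fos was at 3.98, 3.54 and 9.85 CPM under KO, against 19.5, 20.3 and 3.64 CPM under WT. The part of cell handling in the heat shock levels was not tested.

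Some markers of other cells also moved with the split of the libraries, and their part in the heat shock levels was not tested. In edgeR's fit without the library labelled WT 3, 33.9% of all genes passed. There Pecam1 rose (1 of 1 tested on its list), and Cd3g (1 of 6), Cd68 (1 of 5) and Epcam (1 of 4) fell. Of B cell and red cell genes, 0 of 2 passed on each list. In addition, 1 of 2 NK and 1 of 3 granulocyte and mast cell genes fell, near the floor in some libraries labelled KO. Pecam1, on the list of endothelium and stroma, was at 107, 91.9 and 130.5 CPM in the KO-labelled libraries 1 to 3, against 10.4, 8.54 and 93.0 CPM in the WT-labelled libraries 1 to 3. Of that list's 7 genes 3 were measured, and the others of these, Col1a1 and Col1a2, did not exceed 0.542 CPM in any library. The 5 measured epithelial genes of 7 summed to 9.34 to 29.6 CPM under KO and 15.3 to 59.0 CPM under WT, with Epcam at 8.90 to 13.6 CPM under KO and 14.3 to 57.4 CPM under WT. The 7 measured T cell genes of 8 summed to 25.2 to 26.6 CPM under KO and 23.7 to 43.4 CPM under WT. Cd3g was the largest part of that sum, at 11.4 to 18.8 CPM under KO and 16.3 to 37.2 CPM under WT. The sum does not speak for the list. Its 6 tested genes had a median log2 difference of 0.46 without the library labelled WT 3, the opposite direction to Cd3g. The 4 measured B cell genes of 6 summed to 6.70 to 14.5 CPM under KO and 13.5 to 19.5 CPM under WT (highest Cd79b). The 7 measured macrophage and dendritic cell genes of 8 summed to 2.87 to 6.13 CPM under KO and 4.57 to 11.7 CPM under WT (highest Cd68). The 4 measured granulocyte and mast cell genes of 9 summed to 0.542 to 4.26 CPM under KO and 3.91 to 12.7 CPM under WT (highest Cpa3). The 3 measured NK cell genes of 6 summed to 0.0319 to 0.519 CPM under KO and 0.696 to 3.01 CPM under WT (highest Prf1), with Gzma at 0 in all 3 libraries labelled KO. The 4 measured red cell genes of 5 summed to 7.75 to 8.44 CPM under KO and 5.83 to 10.9 CPM under WT (highest Hba-a1). In sorted bulk cells, fewer cells of a type and less RNA per cell cannot be told apart.

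Genes whose pattern over the 6 libraries lay nearest were found by the root mean square difference of centred log2(CPM + 0.5). Gene models without a given name (Gm or Rik symbols) were left out. Copies of Hspa8 and Hsp90aa1 under Gm symbols could therefore not appear, and the genes below are the nearest among named genes only. For Hspa8 these were Ankrd10, Exosc10, Faf1, Rbm17 and Atp5b, at 0.02 to 0.03 log2 units. For Hsp90aa1 they were the chaperonin subunits Cct6a and Cct3 with Nop10, Rsl1d1 and Bysl, at 0.04 to 0.05. Cct6a had 849, 814 and 698 CPM in the KO-labelled libraries 1 to 3, against 324, 330.4 and 829 CPM in the WT-labelled libraries 1 to 3. The genes nearest to the summed Hspa1 pair were farther off: Nr4a1 (0.31), Emp1 (0.31), Tpbg (0.32), Ildr1 (0.34) and Chdh (0.34). Nr4a1, an immediate-early gene that encodes a nuclear receptor, was at 153, 165 and 233 CPM under KO, against 16.8, 18.6 and 158 CPM under WT. These distances describe 6 libraries and carry no test.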

How the data were processed

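Sample titles gave each library's group and number, and column names gave its sample. The authors deposited estimated counts per gene (47.1% to 48.5% of values whole per library, within 1e-06) and a normalized signal; dividing the estimated count plus 1 by a constant of each library (31.2 to 36.0) returned that signal. Per the submitters' processing notes, CASAVA 1.8.2, STAR, Partek and mm10 were used, with no role or order. A STAR version those notes list does not exist for that aligner and is omitted. The sources used here do not say how shared reads were divided.

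Estimated counts were rounded, and KO minus WT was fitted with no covariate by edgeR 4.0.16 under R 4.3.3 (TMM, filterByExpr, robust quasi-likelihood fit, Benjamini-Hochberg adjustment over all genes, threshold 0.05). The SE equals the log2 difference over the root of the F statistic. CPM use TMM-adjusted totals. Floors (3 counts) and Wilson intervals hold counting error at most, because PCR copies were not told apart by molecular identifiers. The Wilson intervals also leave out error from dividing shared reads. Alternatives were other scalings and filters, DESeq2 1.42.0, limma 3.58.1 (voom, and log2 of the authors' signal plus 1 or 0.1), a replicate block and left-out libraries. The fitting code was tested on simulated data.

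The genes, lists and tests were chosen with earlier results of these data known. Named genes are the 10 genes and Atg5, the 2 of lowest p over all 6 libraries and the 2 most abundant of each partner list, the most abundant of each marker list, and the 5 nearest to each of 3 profiles. Added after their values were seen were 4 ILC2 markers, Jun, Atf3, Klf4, Klf2, Fos, Dusp1, Cryaa, Hspd1 and Hspe1. Positions follow the deposited mm10 table, whose ends are 1 base beyond those of GENCODE M21 and are printed less that base. Promoters are from RefSeq on GRCm38.p6. Marker genes without a row in the count table were not analysed here.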

Additional observations from a re-analysis of the deposited data

How the results depend on the processing

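No log2 difference of the 10 genes changed sign under any alternative run. Other scalings moved the median over all genes by at most 0.03 log2 units. Of all genes, 0 passed with all 6 libraries (2026 at an unadjusted p under 0.05), 323 passed by DESeq2, 4991 without the library labelled WT 3 and 6505 without both libraries numbered 3; limma-voom and limma-trend passed 0. Of the 10 heat shock genes 7 passed in each of the last 2 edgeR fits and 0 under the other alternatives at 0.05. A threshold of 0.1 gave 0 in edgeR's fit to all 6 libraries, whereas DESeq2's adjusted p was 0.0881 for Hspa1a and 0.0845 for Hspa1b. Leaving out 1 library at a time gave 0 to 4991 genes, 0 to 7 of the 10, a median log2 difference over the 10 of 0.32 to 0.96, and a difference of the summed Hspa1 pair of 1.51 to 3.25. The upper end of each range is the fit without the library labelled WT 3. Without both libraries numbered 3 the median was 1.04 and the pair rose by 3.01 log2 units (adjusted p = 2.88e-06, edgeR). The cause was not tested.

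Libraries that share a replicate number did not deviate together from their group means (r = -0.0367, 0.0196 and -0.00776 for numbers 1, 2 and 3). This check could miss a pairing, because deviations under WT mostly set the library labelled WT 3 against those labelled WT 1 and WT 2. The numbers were not taken as a pairing. With the number as a replicate block, 0 genes and 0 of the 10 passed, the median over the 10 was 0.62, and the pair's difference was 2.43 (adjusted p = 0.308). The mean log2 ratio of Hsp90ab1 to Hspa8 per kb under KO was 0.20 over all exons and -0.39 over the first-numbered transcripts, a length added after seeing the data; the lengths alone set this reversal. Depth limits Hsf4, Hsf2bp, Cryaa and Ildr1, at, near or below the floor of 3 counts in some libraries.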
